A study of Bos taurus with 22 samples.

Results

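The 8 genes described here make, sense, take up and export cholesterol: *HMGCS1*, *IDI1* and *SQLE* encode enzymes of its synthesis, *SREBF2* and *INSIG1* encode regulators of that synthesis, *NPC1L1* encodes the sterol importer of the gut, and *ABCG5* and *ABCG8* encode partner proteins that together form a sterol exporter. They were chosen by gene symbol out of the 27570 genes in the deposited count table, and each symbol matched 1 gene. All 8 passed the filter on low counts in every comparison, and the lowest count of any of them in any steer was 135, for *NPC1L1*.

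The genes were measured by RNA sequencing of jejunal mucosa scraped from 22 growing Holstein steers, up to a year old, in a 2 × 2 arrangement of an abomasal infusion and a subcutaneous injection given for 7 d. Control steers (n = 5) received water and the bovine serum albumin (BSA) vehicle, GLP-2 steers (n = 5) received water and GLP-2, casein steers (n = 6) received sodium caseinate and vehicle, and casein + GLP-2 steers (n = 6) received caseinate and GLP-2. Every steer, the controls included, was infused with 3.94 g of raw corn starch per kg of body weight per day, the caseinate dose was 1.3 g and the GLP-2 dose 100 µg per kg per day, and GLP-2 was dissolved in the vehicle. Glucagon-like peptide 2 (GLP-2) is a gut hormone that promotes growth of the intestinal mucosa, and casein was infused to add protein beyond the rumen. The main comparisons set the 11 steers injected with GLP-2 against the 11 injected with vehicle, and the 12 infused with casein against the 10 infused with water.

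Cholesterol is built from acetyl-CoA through mevalonate, isoprene units and squalene. When membranes of the endoplasmic reticulum run low in sterol, the membrane-bound precursor of SREBP-2, the product of *SREBF2*, is carried to the Golgi and cut, and the released factor turns on the genes of synthesis together with *INSIG1*, whose product holds the precursor back. In the small intestine, absorptive cells of the villus take up luminal cholesterol through NPC1L1 and return sterols to the lumen through the ABCG5 and ABCG8 pair. What is kept is esterified by SOAT2 and packed into chylomicrons with apolipoprotein B by MTTP.

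The deposited counts summed to between 8809666 and 28447810 per steer. All 14 markers of villus enterocytes were in the table and none was at 0 in all steers, which cannot by itself check the tissue label. Their summed level ranged from 1316 to 14547 CPM (counts scaled to library size, with TMM normalization) in vehicle steers and from 6726 to 24853 CPM in steers injected with GLP-2. The summed level of 12 B cell follicle markers ranged from 54.4 to 2262 CPM in vehicle steers and from 35.9 to 92.4 CPM with GLP-2, and that of 10 markers of proliferating crypt cells from 244 to 1068 CPM and from 217 to 823 CPM. In bulk mucosa, fewer cells of a type and less RNA per cell cannot be told apart. The integrity of the RNA of each steer was not analysed here.

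The genes differed in how tightly they were held between steers. Across all 22 steers *SREBF2* ranged from 173 to 344 CPM, *HMGCS1* from 86.8 to 245 CPM, *SQLE* from 43.7 to 125 CPM and *IDI1* from 31.7 to 90.8 CPM. *NPC1L1* ranged from 8.76 to 248 CPM, *ABCG5* from 12.5 to 248 CPM, *ABCG8* from 41.8 to 449.9 CPM and *INSIG1* from 35.1 to 480.2 CPM. The ratio of the highest to the lowest steer was therefore 28.3 for *NPC1L1* and 10.8 for *ABCG8*, and at most 2.87 for the 4 genes *SREBF2*, *HMGCS1*, *SQLE* and *IDI1*.

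**Figure D1:**
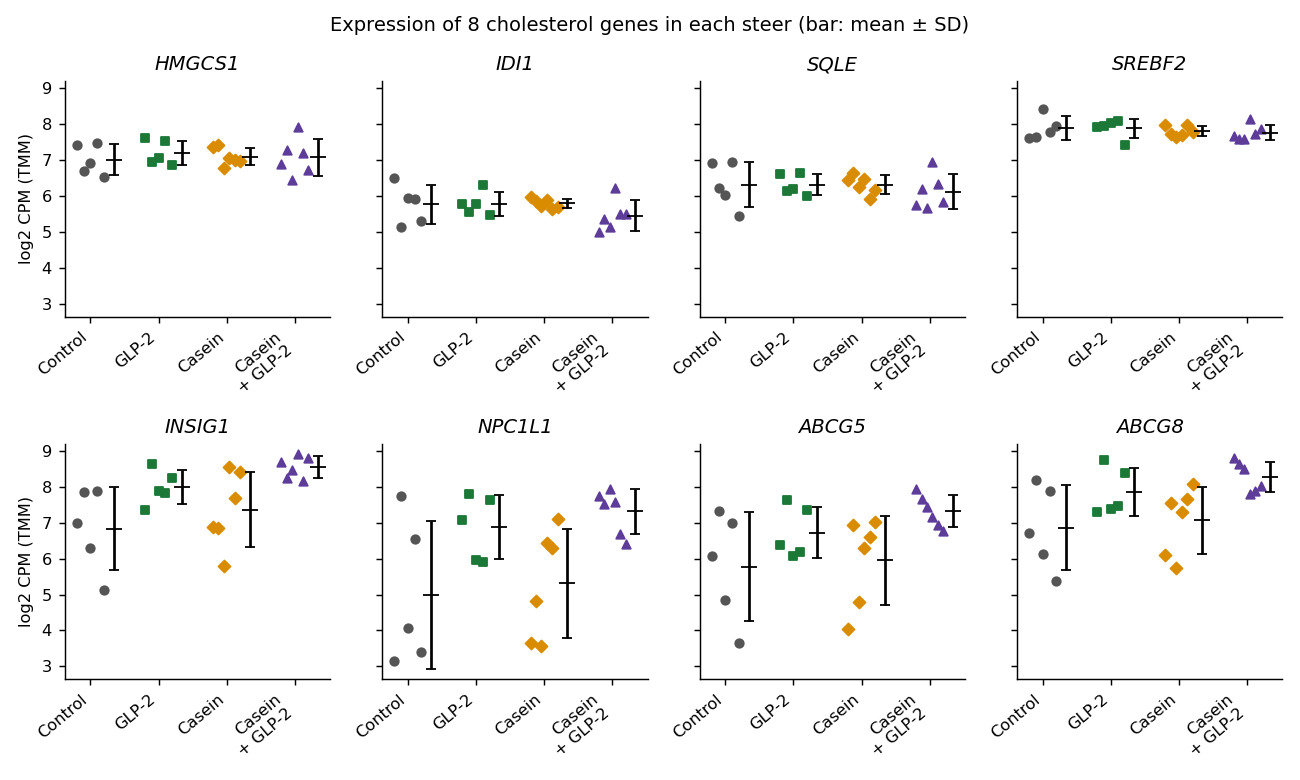
Expression of the 8 genes as log2 CPM (vertical axis) in each of the 22 steers, by treatment (horizontal axis). Points are steers and black bars are the mean ± SD of a treatment. *HMGCS1*, *IDI1*, *SQLE* and *SREBF2* overlap between treatments, whereas *INSIG1*, *NPC1L1*, *ABCG5* and *ABCG8* spread widely in control and casein steers, and no steer of the 2 treatments with GLP-2 lies in the lowest part of that spread.

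Levels were compared between genes on the deposited FPKM scale, which divides by gene length. The median over 22 steers was 71.1 FPKM for *ABCG8*, 67.4 for *INSIG1*, 54.2 for *ABCG5*, 42.0 for *SREBF2*, 38.2 for *IDI1*, 24.9 for *HMGCS1*, 24.2 for *SQLE* and 21.5 for *NPC1L1*. In this order *IDI1* stood above *HMGCS1* in 22 of 22 steers, but the other neighbours changed places in some steers, with the higher-ranked gene ahead in 12 to 19 of 22. By median FPKM the lowest of the 8, *NPC1L1*, was above 75.6% of the 15086 genes tested in the model of the separate treatments. *ABCG8* was above 92.1% of them.

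With GLP-2, 1 of the 8 genes passed the adjusted threshold of 0.05 (quasi-likelihood test of edgeR), and it was higher. Over all 13928 genes tested, 13.5% were called, 5.13% as higher and 8.37% as lower. These 1881 calls moved by over 1.5 times when certain steers were left out. They became 634 to 1230 without casein replicates 1 or 3, casein + GLP-2 replicates 1, 2 or 3, control replicates 1, 3 or 5, or GLP-2 replicates 3 or 6. They became 2892 without casein replicate 6 and 3516 without control replicate 2 (1693 higher and 1823 lower). Within the limit of 0.1 that marks a tendency lay 3 of the 8 genes and 26.1% of all genes. At an unadjusted p of at most 0.05, 4 of the 8 genes passed and all 4 were higher, and 34.6% of all genes passed, 16.5% as higher. The median log2 fold change of the 8 genes was 0.49 against 0.0079 over all genes tested. Whether the share of members differs from that of all genes was not tested.

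*HMGCS1* (chr20:31431008-31456871, ARS-UCD1.2, plus strand) encodes the cytosolic synthase that makes HMG-CoA. In the 5 control steers it stood at 92.2, 103, 120.2, 173 and 179.7 CPM, and in the 5 GLP-2 steers at 117, 124, 134, 184 and 194 CPM. Casein steers lay between 111 and 173 CPM with a median of 130.3, and casein + GLP-2 steers between 86.8 and 245 CPM with a median of 132. The treatments overlapped throughout, and 11 of 11 vehicle steers were above the lowest steer injected with GLP-2. The log2 fold change of GLP-2 against BSA was 0.10 ± 0.16 (SE), with a 95% interval from -0.23 to 0.43 and an adjusted p of 0.675 in edgeR.

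*IDI1* (chr13:46325275-46328399, plus strand), the isomerase that supplies the reactive isoprene unit, and *SQLE* (chr14:15144664-15167777, minus strand), the epoxidase that commits squalene to sterols, also overlapped between the injections. *IDI1* had a mean of 56.5 ± 14.5 CPM (SD, n = 11) in vehicle steers and 50.3 ± 14.97 CPM (SD, n = 11) in steers injected with GLP-2, a log2 fold change of -0.17 ± 0.16 (interval -0.50 to 0.16, adjusted p = 0.447, edgeR). *SQLE* had means of 82.9 ± 24.7 and 76.7 ± 22.2 CPM (SD, n = 11 each), and its log2 fold change was -0.12 ± 0.17 (interval -0.47 to 0.24, adjusted p = 0.644, edgeR). *IDI1* ranged from 35.0 to 90.8 CPM with vehicle and from 31.7 to 79.0 CPM with GLP-2, and *SQLE* from 43.7 to 125 CPM and from 50.8 to 123 CPM. The intervals leave room for differences of up to 0.50 on the log2 scale for *IDI1*, so equality was not shown.

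*SREBF2* (chr5:112832407-112890177, plus strand) was the most even of the 8 genes. Control steers lay at 195, 199, 223, 249 and 344 CPM, and GLP-2 steers at 173, 243, 248, 261 and 271 CPM. Casein steers ranged from 202 to 251 CPM (median 216) and casein + GLP-2 steers from 192 to 285 CPM (median 208). A single control steer was highest and a single GLP-2 steer lowest, with the other steers between. GLP-2 against BSA gave a log2 fold change of -0.02 ± 0.11 (interval -0.26 to 0.22, adjusted p = 0.913, edgeR).

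*INSIG1* (chr4:117125786-117138560, plus strand), itself a target of SREBP-2, did not stay with the synthesis genes. Control steers stood at 35.1, 78.5, 127, 233 and 236 CPM, and GLP-2 steers at 165, 227, 236, 305 and 401 CPM. Casein steers ranged from 55.8 to 380.0 CPM with a median of 161, and casein + GLP-2 steers from 287 to 480.2 CPM with a median of 388. All 11 steers injected with GLP-2 were above the vehicle median, and 6 of 11 vehicle steers were below the lowest of them, but 5 vehicle steers lay within the GLP-2 range. The log2 fold change of GLP-2 against BSA was 0.93 ± 0.32 (SE, interval 0.27 to 1.59) with an adjusted p of 0.0518 in edgeR, a tendency, and 11.9% of all genes were higher within that limit.

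*NPC1L1* (chr4:76889504-76912254, plus strand) had the widest range. Control steers stood at 8.76, 10.5, 16.7, 94.3 and 216 CPM, and GLP-2 steers at 59.7, 62.7, 135, 199 and 225 CPM. Casein steers ranged from 11.6 to 139 CPM with a median of 53.2, and casein + GLP-2 steers from 85.3 to 248 CPM with a median of 188. In vehicle steers the values fell into a low set of 6 steers at 27.9 CPM or less and a high set of 5 steers inside the GLP-2 range, and no steer injected with GLP-2 was in the low set. The log2 fold change of GLP-2 against BSA was 1.30 ± 0.50 (interval 0.27 to 2.34), with an adjusted p of 0.0756 in edgeR.

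*ABCG5* (chr11:26047011-26079187, minus strand) and *ABCG8* (chr11:26078726-26097141, plus strand) lie head to head, and their gene models in the deposited annotation share 462 bases on opposite strands. The libraries were made strand-specific, but the strand setting of the authors' counting is not given in the sources used here, so reads of the shared bases may count for either gene. On the FPKM scale *ABCG8* exceeded *ABCG5* in 22 of 22 steers, by a ratio of 1.45 at the median (lowest 1.09, highest 3.03).

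*ABCG5* stood at 12.5, 28.8, 66.9, 128 and 161 CPM in control steers and at 67.6, 72.2, 83.9, 163 and 200.2 CPM in GLP-2 steers. Casein steers ranged from 16.3 to 131 CPM (median 87.8) and casein + GLP-2 steers from 109 to 248 CPM (median 157). Of 11 vehicle steers 5 were below the lowest steer injected with GLP-2 and 6 were inside the GLP-2 range. The log2 fold change was 0.88 ± 0.38 (interval 0.11 to 1.66), with an adjusted p of 0.102 in edgeR.

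*ABCG8* was higher with GLP-2. Control steers stood at 41.8, 70.2, 105, 236 and 295 CPM and GLP-2 steers at 158, 167, 177, 335 and 429 CPM, while casein steers ranged from 52.9 to 273 CPM (median 173) and casein + GLP-2 steers from 223 to 449.9 CPM (median 311). The mean was 154 ± 91.4 CPM in vehicle steers and 291 ± 108 CPM with GLP-2 (SD, n = 11 each). All 11 steers injected with GLP-2 were above the vehicle median, while 5 of 11 vehicle steers lay inside the GLP-2 range. The log2 fold change was 0.94 ± 0.32 (interval 0.29 to 1.60), with an adjusted p of 0.0494 in edgeR.

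The call of *ABCG8* lay at the threshold. With the replicate block of the labels as a term, the log2 fold change of *ABCG8* was 1.08 with an adjusted p of 0.0540 (edgeR), and 0 of the 8 genes were called. In the 22 fits that each left out 1 steer, *ABCG8* was called in 6, without casein replicate 6, control replicates 2 or 4, or GLP-2 replicates 1, 4 or 5, and its adjusted p reached 0.0908 among the other 16. *INSIG1* was called in 7 of the 22 fits, the same 6 and the fit without casein replicate 4. Over all genes, these 7 fits called 2073 to 3516 genes, more than the 1881 with all steers. The other 15 fits called 1695 or fewer, so these member calls cannot be read alone. Without control replicate 2 alone, all of *INSIG1* (adjusted p = 0.0354), *ABCG8* (0.0193), *NPC1L1* (0.0165) and *ABCG5* (0.0468) were called by edgeR. In that fit 3516 of all 14050 genes tested were called, 1693 of them as higher. Without casein replicate 6 *NPC1L1* was called too (0.0446, edgeR), beside 2892 of 14027 genes, 1286 of them as higher.

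**Figure D2:**
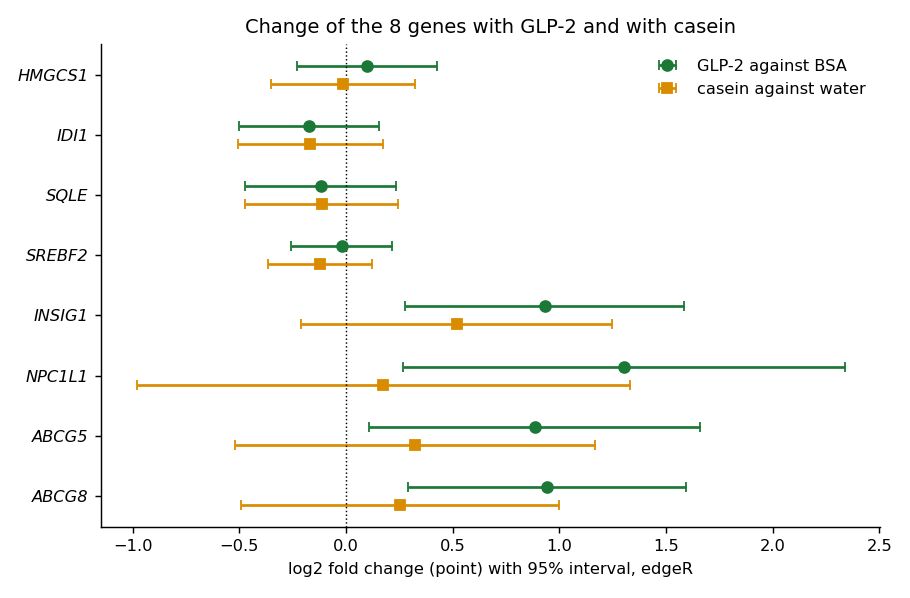
Log2 fold change (points) with 95% intervals (bars) of each gene from edgeR, for GLP-2 against BSA (circles, 11 against 11 steers) and casein against water (squares, 12 against 10 steers). The GLP-2 intervals of *INSIG1*, *NPC1L1*, *ABCG5* and *ABCG8* lie above 0 and those of the other 4 genes include 0, and every casein interval includes 0.

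Marker levels moved with these results. All 14 villus enterocyte markers had a positive log2 fold change with GLP-2 (median 1.13, from 0.74 to 2.10), and 3 of them were called as higher. Of 12 B cell follicle markers 10 were tested, and 9 were called as lower (median log2 fold change -3.13). Of 10 markers of proliferating crypt cells 2 were called as lower (median -0.60). With a villus enterocyte score (the 14 markers averaged as log2 CPM in a steer) as a covariate, the log2 fold change of *ABCG8* was 0.14, of *INSIG1* 0.31, of *NPC1L1* 0.31 and of *ABCG5* -0.08, and with the follicle score as a covariate they were 0.13, 0.17, 0.15 and 0.06. Under either covariate edgeR called 0 of 13928 genes, with 378 and 331 genes at an unadjusted p of at most 0.05. The scores themselves differed between the injections, and their part in the result was not tested. Both scores rest on markers that themselves differed with GLP-2. For neither score can a change in the share of cells and a change in RNA per cell be told apart.

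Casein against water called 0 of the 8 genes and 0 of the 14096 genes tested (0% called) in edgeR, with 0 of the 8 and 474 of all genes (3.36%) at an unadjusted p of at most 0.05. The largest difference was that of *INSIG1*, which had a log2 fold change of 0.52 ± 0.35 (interval -0.21 to 1.25, adjusted p = 0.994). Those of the other 7 genes lay between -0.17 and 0.32. A DESeq2 Wald test called 5 genes over the whole table, none of them a member. The intervals were wide for *NPC1L1* (-0.98 to 1.33) and narrow for *SREBF2* (-0.37 to 0.12).

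In the model of the 4 treatments, fitted to 15086 genes, GLP-2 against control and casein + GLP-2 against casein gave each gene a value of its own. These contrasts share no steer, and both called 0% of all genes and 0 of the 8 in edgeR, with 2103 (13.9%) and 3637 (24.1%) of all genes and 0 and 3 of the 8 at an unadjusted p of at most 0.05. DESeq2 called 289 and 891 genes, none of them a member. *INSIG1* differed by 0.91 ± 0.46 on the log2 scale under water and by 0.92 ± 0.42 under casein. For *ABCG8* the values were 0.76 ± 0.48 and 1.04 ± 0.44, for *ABCG5* 0.56 ± 0.56 and 1.07 ± 0.52, and for *NPC1L1* 0.98 ± 0.76 and 1.53 ± 0.71. When single steers were left out, the value of *INSIG1* under water lay between 0.65 and 1.19. Those of *NPC1L1*, *ABCG5* and *ABCG8* under water moved by over 1.5 times. Without control replicate 2 they were 2.05 for *NPC1L1*, 0.98 for *ABCG5* and 1.14 for *ABCG8*, without GLP-2 replicate 3 they were 0.26 for *ABCG5* and 0.46 for *ABCG8*, and without control replicates 3 or 5 *ABCG5* was at 0.35 or 0.28. The difference between these effects, the casein by GLP-2 interaction, had adjusted p of at least 0.996 for all 8 genes, and its intervals were wide, from -1.57 to 2.68 for *NPC1L1*. Over all genes edgeR called 0 interactions (645 genes, or 4.28%, at an unadjusted p of at most 0.05) and DESeq2 called 2.

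Casein + GLP-2 against control, which combines both factors, called 5.12% of the 15086 genes, 1.24% as higher and 3.88% as lower, and 0 of the 8. Those 773 calls over all genes became 0 with the replicate block (3622 genes at an unadjusted p of at most 0.05) and 0 when only these 2 treatments were fitted (3742), 7 or 6 in limma on log2(FPKM + 1) or log2(FPKM + 0.1), and 2077 in DESeq2. At an unadjusted p of at most 0.05 were 2 of the 8 and 27.7% of all genes. *INSIG1* had the largest difference, 1.43 ± 0.46 (interval 0.49 to 2.37), with an adjusted p of 0.0625 in edgeR (4.68% of all genes were higher within the limit of a tendency), and leaving out casein replicate 3 (adjusted p = 0.0407), control replicate 4 (0.0387) or control replicate 2 (0.0201) brought it past the threshold. Without control replicate 2, *NPC1L1* (0.0273) and *ABCG8* (0.0300) passed as well in edgeR. The calls over all genes in these fits are not given here. For GLP-2 against BSA, leaving out control replicate 2 raised them from 1881 to 3516, so these member calls cannot be read alone. *HMGCS1*, *SQLE*, *IDI1* and *SREBF2* lay between -0.34 and 0.09, with adjusted p of at least 0.343. Casein against control and casein + GLP-2 against GLP-2 called 0 of the 8 genes and 0% of all genes, with 854 (5.66%) and 398 (2.64%) of all genes and 0 of the 8 at an unadjusted p of at most 0.05, and DESeq2 called 10 and 5 genes.

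Steers of the same treatment differed enough to ask which of the 8 genes varied together. After the treatment means were removed, *HMGCS1*, *SQLE* and *IDI1* varied together over the 22 steers. The Pearson correlation of *HMGCS1* with *SQLE* was 0.91 (Spearman's rho 0.87, adjusted permutation p = 7.0e-05 for each, the smallest these permutations gave over 28 pairs of genes) and 0.86 without the 2 steers farthest from the median of *HMGCS1*. For *HMGCS1* and *IDI1* r was 0.79 (rho 0.78) and for *SQLE* and *IDI1* 0.77 (rho 0.75), with adjusted permutation p of 0.00014 and 0.00024 for r, and without the 2 farthest steers 0.72 and 0.67. The points share their library, so that depth and the makeup of the sample enter each value of a steer.

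For *INSIG1*, *NPC1L1*, *ABCG5* and *ABCG8*, which ranged more widely in vehicle steers than in steers injected with GLP-2, correlations are given within each injection. Over the 11 steers injected with GLP-2, r was 0.95 for *ABCG5* with *ABCG8* (rho 0.80, adjusted permutation p = 0.0014), 0.88 for *NPC1L1* with *ABCG5* (rho 0.93, adjusted permutation p = 0.00861) and 0.74 for *NPC1L1* with *ABCG8* (rho 0.68, adjusted permutation p = 0.0525), and without the 2 farthest steers 0.90, 0.82 and 0.67. In the same steers *INSIG1* had r from 0.37 to 0.55 with these 3 genes, with adjusted permutation p from 0.142 to 0.339. Over the 11 vehicle steers the 6 pairs of these 4 genes had r from 0.80 to 0.96, and from 0.67 to 0.98 without the 2 farthest steers. Between the synthesis genes and these 4, 0 of 12 pairs were called in either set of 11 steers, with r from -0.70 to -0.053 with GLP-2 and from -0.46 to 0.47 with vehicle.

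In the steers injected with GLP-2, *SREBF2* had r of 0.60 with *HMGCS1*, 0.64 with *SQLE* and 0.77 with *IDI1*. Only the last was called (rho 0.76, adjusted permutation p = 0.0268), and the adjusted permutation p of the others was 0.115 and 0.102. Without the 2 farthest steers the values of r were 0.33, 0.26 and 0.53, so the relation rests in part on those steers. In vehicle steers the same pairs had r of -0.15, -0.49 and 0.0065. Over all 22 steers 0 of these 3 pairs were called (smallest adjusted permutation p = 0.167). The difference between the injections was not tested.

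**Figure D3:**
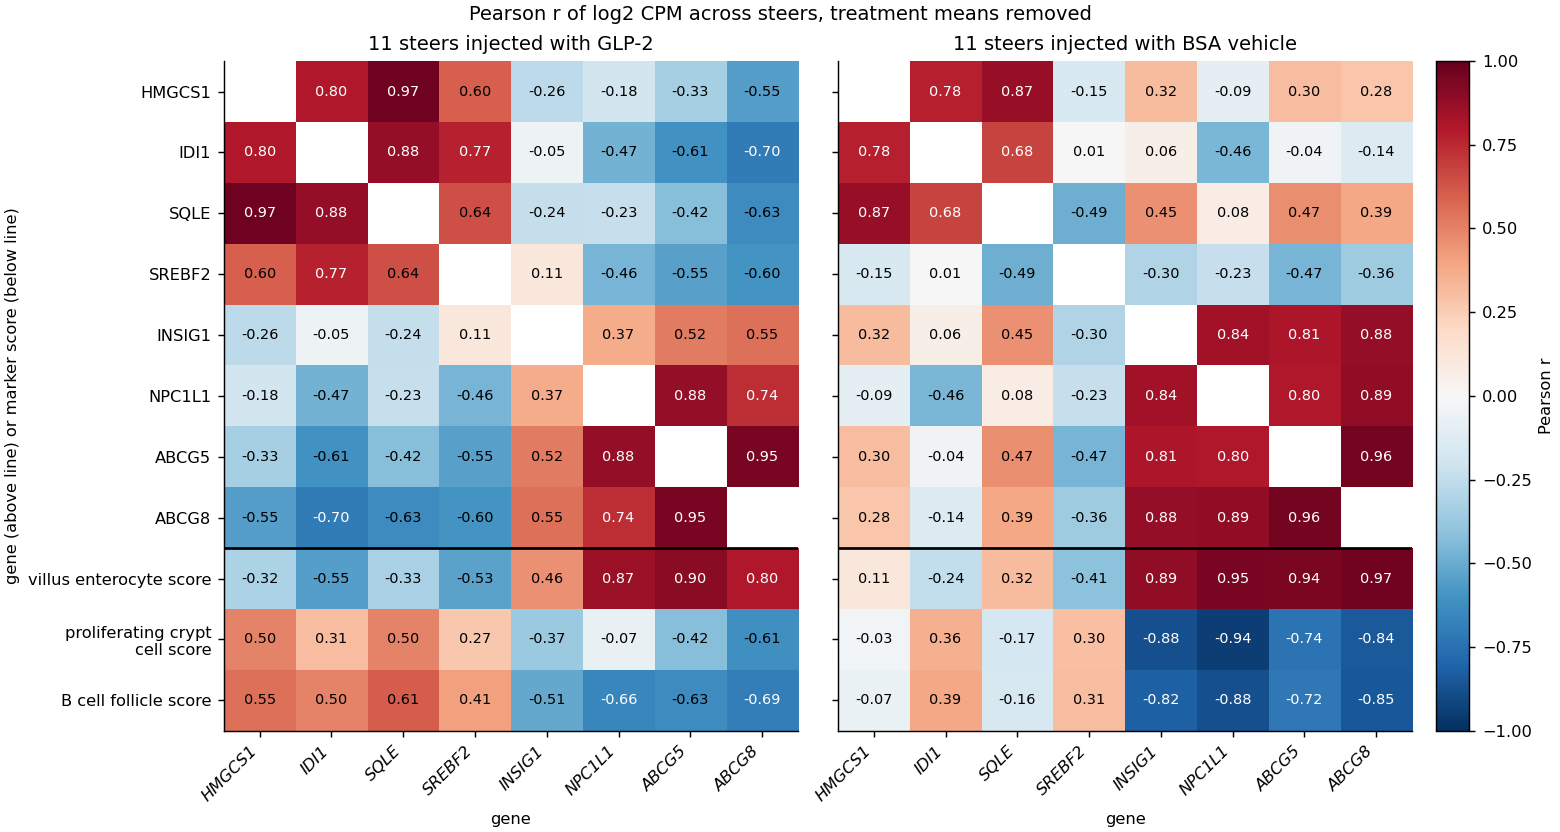
Pearson r of log2 CPM with treatment means removed, between the 8 genes (above the line) and between each gene and 3 marker scores (below the line), over the 11 steers injected with GLP-2 (left) and the 11 injected with vehicle (right). *HMGCS1*, *IDI1* and *SQLE* correlate at 0.68 or more in both panels, *NPC1L1*, *ABCG5* and *ABCG8* correlate at 0.74 or more in both and with the villus enterocyte score at 0.80 or more.

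The marker scores were set beside the 8 genes after their values had been seen, in 24 correlations. Over the steers injected with GLP-2, the villus enterocyte score had r of 0.90 with *ABCG5* (rho 0.90, adjusted permutation p = 0.00288), 0.87 with *NPC1L1* (rho 0.93, adjusted permutation p = 0.00552) and 0.80 with *ABCG8* (rho 0.74, adjusted permutation p = 0.0219). Without the 2 farthest steers these were 0.79, 0.80 and 0.60. *INSIG1* had r of 0.46 with the score (adjusted permutation p = 0.237) and -0.023 without the 2 farthest steers, while *HMGCS1*, *SQLE*, *IDI1* and *SREBF2* had r from -0.55 to -0.32 and none was called. In vehicle steers the score itself lies in a low set of 5 steers (5.42 to 6.82) and a high set of 6 (7.87 to 9.36), and r was 0.89 for *INSIG1*, 0.95 for *NPC1L1*, 0.94 for *ABCG5* and 0.97 for *ABCG8*. The follicle score had r from -0.69 to -0.51 and the crypt score from -0.61 to -0.073 with *INSIG1*, *NPC1L1*, *ABCG5* and *ABCG8* in the steers injected with GLP-2, and none was called. In vehicle steers all 8 of these pairs were called, with r from -0.88 to -0.72 for the follicle score and from -0.94 to -0.74 for the crypt score (adjusted permutation p from 0.0011 to 0.0252). With GLP-2, *HMGCS1*, *SQLE*, *IDI1* and *SREBF2* had r from 0.41 to 0.61 with the follicle score and from 0.27 to 0.50 with the crypt score. With vehicle their r was from -0.16 to 0.39 and from -0.17 to 0.36, and none was called with either injection. The share of all genes that correlate as closely with the scores is not given here. Such values therefore cannot be read as particular to the 8 genes. The 5 low steers were casein replicates 1 and 3 and control replicates 1, 3 and 5. These steers also had the 5 lowest levels of *NPC1L1*, of *ABCG5* and of *ABCG8*. For *ABCG5* the margin was narrow, with control replicate 1 at 66.9 CPM and GLP-2 replicate 4 at 67.6 CPM.

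**Figure D4:**
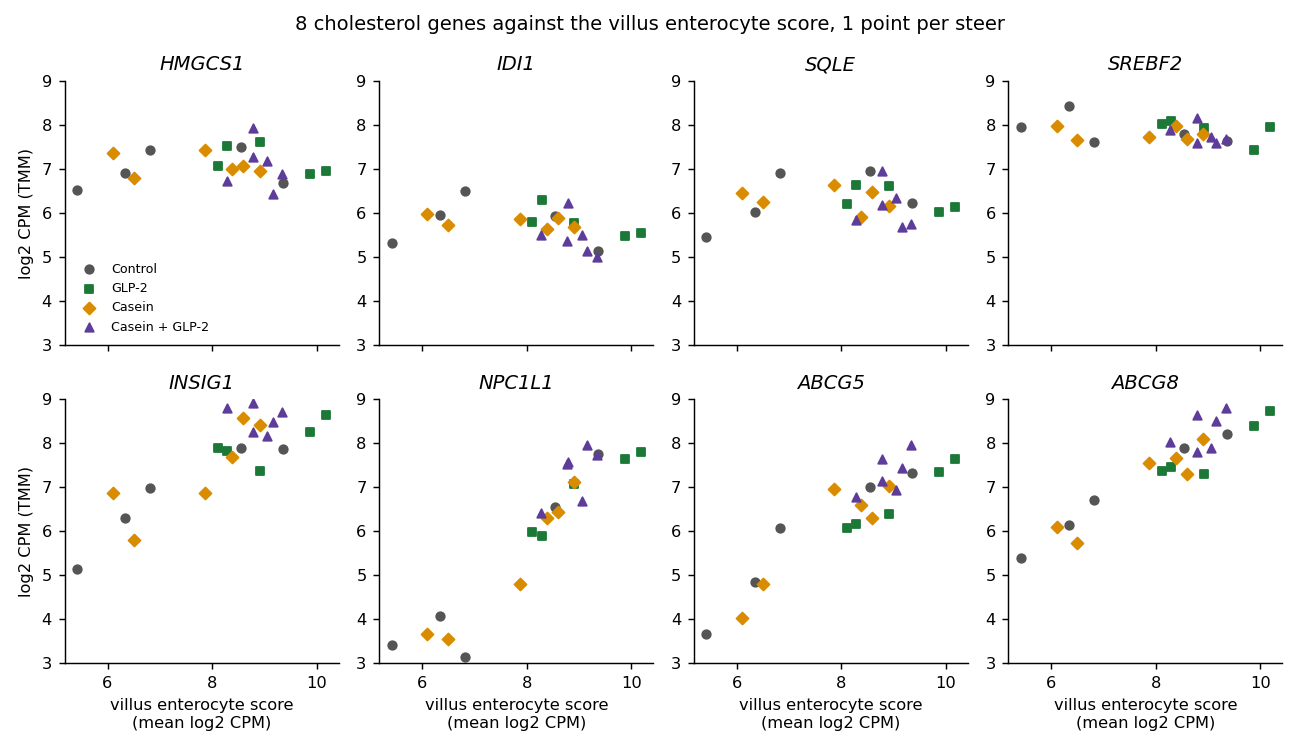
Log2 CPM of each gene (vertical axis) against the villus enterocyte score (horizontal axis, mean log2 CPM of 14 markers), 1 point per steer and 1 colour and shape per treatment. *NPC1L1*, *ABCG5* and *ABCG8* climb with the score across all treatments, *INSIG1* climbs mainly between the low set of vehicle steers and the rest, and *HMGCS1*, *IDI1*, *SQLE* and *SREBF2* do not climb with it.

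The genes most like the members were taken from 13238 ranked genes by Pearson r with the mean z-score of 4 and of 3 of them over the 22 steers, treatment means removed, as a description. The score of *HMGCS1*, *SQLE*, *IDI1* and *INSIG1* joins genes that did not all vary together, since *INSIG1* had r from -0.26 to -0.053 with the other 3 with GLP-2 and from 0.055 to 0.45 with vehicle. For this score the nearest included *LSS* (r = 0.80), an enzyme of sterol synthesis, *TRMT61B* (0.75), *OLA1* (0.75) and *CPM* (0.75), the last encoding a carboxypeptidase. For *NPC1L1*, *ABCG5* and *ABCG8* they were *TUBAL3* (0.98), *COBL* (0.98), *GSDME* (0.97), *NEDD4L* (0.97) and *DAB1* (0.97). None of these genes was called with GLP-2, and *GSDME* came nearest, with a log2 fold change of 1.37 ± 0.48 and an adjusted p of 0.0557 in edgeR.

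The wider pathway was described by 7 lists with 85 genes, of which 83 were in the table and 82 were tested with GLP-2. Of these, 7 were called as higher and 4 as lower, and the median log2 fold change was 0.30, beside 5.13% of all genes called as higher, 8.37% as lower and a median of 0.0079. Whether the lists differ from all genes was not tested, and the same shares stand behind the count of each list. Fits that left out 1 steer called from 634 to 3516 genes over all genes, so calls of list genes in them cannot be read alone. Casein against water called 0 of 82 in edgeR, with 1 at an unadjusted p of at most 0.05.

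Of 20 sterol synthesis genes, 1 was called as higher and 1 as lower with GLP-2, and the median was 0.10, beside 13.5% of all genes called. The called genes were *CYP51A1*, the lanosterol demethylase (log2 fold change 0.99 ± 0.32, adjusted p = 0.0431), and *MVD*, the decarboxylase that makes isopentenyl diphosphate (-0.86 ± 0.23, adjusted p = 0.0252). *MVD* had a mean of 48.1 ± 24.4 CPM in vehicle steers and 26.5 ± 8.75 CPM with GLP-2 (SD, n = 11 each), and *CYP51A1* 151 ± 88.1 and 299 ± 143 CPM. Both calls were kept with the replicate block (*CYP51A1* 0.0493, *MVD* 0.0494), whereas of the 22 fits that left out 1 steer *CYP51A1* was called in 8, without casein replicates 4 or 6, casein + GLP-2 replicate 5, control replicates 2 or 4, or GLP-2 replicates 1, 4 or 5 (adjusted p up to 0.0829 in the other 14). The call of *MVD* ended without casein + GLP-2 replicate 3 (0.0505) or control replicate 3 (0.0515).

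In the list of SREBP processing and regulation, 2 of 11 genes were called as higher, 10 of 11 had a positive log2 fold change and the median was 0.49, beside 5.13% of all genes called as higher and 7061 of 13928 with a positive log2 fold change. These were *SREBF1*, which encodes the factor of fatty acid synthesis (0.84 ± 0.27, adjusted p = 0.0446), and *ERLIN2*, which takes part in the degradation of proteins of the endoplasmic reticulum (0.67 ± 0.18, adjusted p = 0.0242). *SREBF1* rose from a mean of 171 ± 84.1 to 301 ± 130.5 CPM, and *ERLIN2* from 136 ± 43.9 to 214 ± 47.0 CPM (SD, n = 11 each). *SREBF2* was the 1 gene of the list below 0. With the replicate block *ERLIN2* was kept (0.0487) and *SREBF1* was not (0.0612), and of the 22 fits that left out 1 steer *ERLIN2* was called in 22 and *SREBF1* in 8, which were those named for *CYP51A1* (adjusted p up to 0.0955 in the other 14).

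Sterol uptake had 1 of 10 genes called as higher, *LRP1*, a large endocytic receptor (0.80 ± 0.21, adjusted p = 0.0239), and the median was 0.40, or 0.0026 without *NPC1L1*. *LRP1* had means of 72.5 ± 23.0 and 125 ± 47.1 CPM (SD, n = 11 each), it was called in all 22 fits that left out 1 steer, and with the replicate block its adjusted p was 0.0522. Sterol export and LXR targets had *ABCG8* called as higher and *ABCG1* as lower among 9 genes, with a median of 0.38, or 0.13 without *ABCG5* and *ABCG8*. *ABCG1*, which exports sterol to lipoproteins in macrophages and other cells, was sparse, at 3.64 ± 4.77 CPM in vehicle steers and 1.05 ± 0.51 CPM with GLP-2. Its medians were 0.993 and 0.945 CPM and its highest vehicle steer was at 14.8 CPM, so the medians lay close together while the means did not. Its log2 fold change was -1.81 ± 0.60 (adjusted p = 0.0472, edgeR) with no call under the replicate block (0.221) or in 13 of 22 fits that left out 1 steer. It was called without casein replicates 1, 2, 4, 5 or 6, control replicates 2 or 4, or GLP-2 replicates 1 or 4.

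Intracellular sterol movement and esterification had 11 of 13 genes at a positive log2 fold change and a median of 0.47, with *STARD3*, a sterol carrier of late endosomes (0.49 ± 0.16, adjusted p = 0.0456), called as higher and *GRAMD1A*, a sterol carrier between the plasma membrane and the endoplasmic reticulum (-0.59 ± 0.18, adjusted p = 0.0340), called as lower. Neither was called with the replicate block (0.0637 and 0.0698). When 1 steer was left out, *STARD3* was called in 8 of 22 fits, without casein replicates 4, 5 or 6, control replicates 2 or 4, or GLP-2 replicates 1, 4 or 5. *GRAMD1A* lost its call in 9, without casein replicates 1 or 3, casein + GLP-2 replicates 1 or 3, control replicates 1, 3 or 5, or GLP-2 replicates 3 or 6. *SOAT2*, the esterifying enzyme of enterocytes, had a log2 fold change of 1.05 ± 0.44 (adjusted p = 0.0982, edgeR). Of the chylomicron genes 0 of 9 tested were called at a median of 0.91, with *APOB* at 1.10 ± 0.55 (adjusted p = 0.159) and *MTTP* at 0.93 ± 0.40 (adjusted p = 0.105). Without control replicate 2, *SOAT2* (0.0295) and *APOB* (0.0435) were called by edgeR, in a fit that called 3516 of 14050 genes, 1693 as higher.

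Of 10 tested genes of fatty acid synthesis, targets of the *SREBF1* product, *SCD*, the stearoyl-CoA desaturase, was called as higher (1.06 ± 0.28, adjusted p = 0.0248) and *FADS2*, a desaturase of polyunsaturated fatty acids, as lower (-1.97 ± 0.53, adjusted p = 0.0256). *SCD* had means of 252 ± 117 CPM in vehicle steers and 524 ± 272 CPM with GLP-2 (SD, n = 11 each), and it was called with the replicate block (0.0482) and in all 22 fits that left out 1 steer. *FADS2* ranged from 2.73 to 53.4 CPM in vehicle steers and from 0.71 to 8.05 CPM with GLP-2, with medians of 4.85 and 4.27 CPM. It was not called with the replicate block (0.0794) or without control replicate 3 (0.0618). With the follicle score as a covariate the log2 fold changes of *FADS2* and *ABCG1*, both sparse genes, turned to 0.52 and 0.95.

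**Figure D5:**
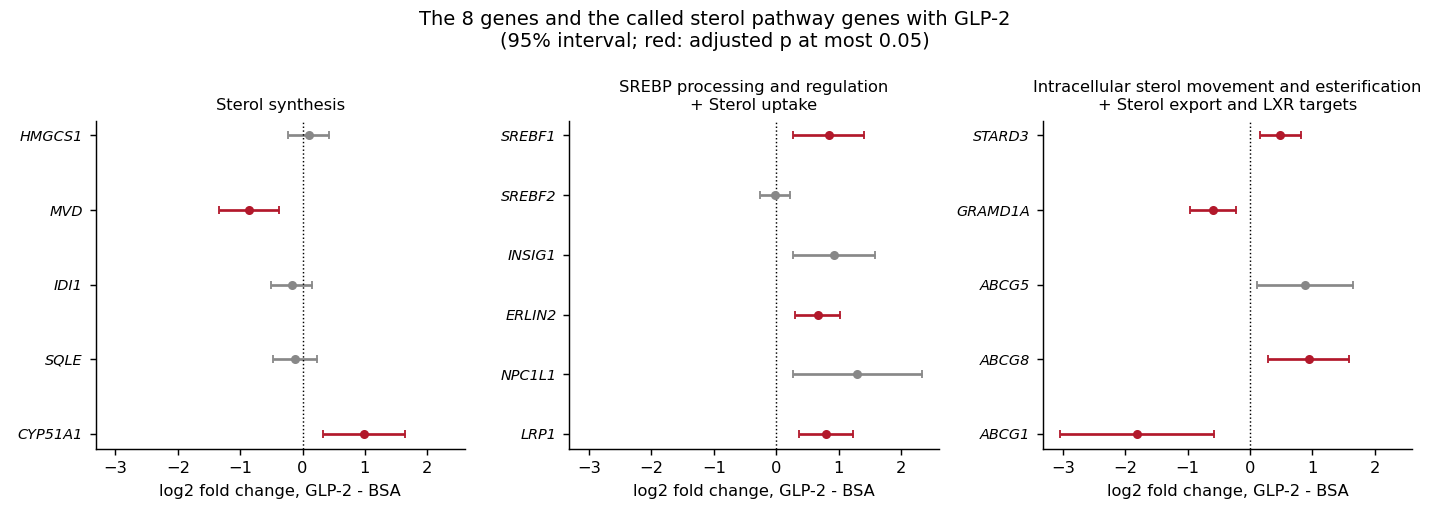
Log2 fold change of GLP-2 against BSA (points, horizontal axis) with 95% intervals for the 8 genes and the called genes of 5 sterol lists, with called genes in red. *CYP51A1*, *SREBF1*, *ERLIN2*, *LRP1*, *STARD3* and *ABCG8* lie above 0, *MVD*, *GRAMD1A* and *ABCG1* lie below, and *HMGCS1*, *IDI1*, *SQLE* and *SREBF2* lie close to 0.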

How the data were processed

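RNA of the jejunal mucosa of 22 steers was used, and a GLP-2 steer of block 2 was not analysed here. The paper reports that a control sample was left out of sequencing because its RNA integrity was low. It also reports that integrity varied among the samples. The authors aligned 150-base paired reads of strand-specific libraries to ARS-UCD1.2 with HISAT2 2.0.5 and counted reads per gene with featureCounts 1.5.0-p3, and they deposited whole-number counts that were not normalized. They also deposited FPKM values, which equal the count over length and table total times a constant of each steer between 0.798 and 1.37. FPKM was used to compare levels between genes and in limma as an alternative with log2(FPKM + 1) or log2(FPKM + 0.1). Coordinates and lengths are those of the deposited table.

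In R 4.3.3, edgeR 4.0.16 filtered genes by filterByExpr (minimum count 10), normalized by TMM and compared groups by the quasi-likelihood test with Benjamini-Hochberg adjustment over all genes tested and a threshold of 0.05, with a tendency up to 0.1. SE is the log2 fold change over the root of F. CPM is TMM-scaled and log2 CPM has a prior count of 2. Pooled groups were compared without covariates, and the 4 treatments in a model with 1 mean each. Correlations used permutation tests (2-sided, 100000 resamples). limma 3.58.1 and DESeq2 1.42.0 served the alternatives. The procedure was tested on simulated data. No pair of libraries within a treatment was identical. Library totals had a median of 12028560.5.

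The replicate number is the block of the labels, in which steers had been grouped by body weight. As a check of the pairing, the deviations of log2 CPM from the treatment means correlated at 0.033 on average between 30 pairs of steers that shared a block and at -0.0064 between 151 that did not.

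The members, lists and tests were chosen with earlier results of these data known. Named are the 8 members, fixed reference genes (*SOAT2*, *APOB* and *MTTP* among them), the list genes past the threshold with GLP-2 or casein (at most 20), and the 5 genes most like each of 2 groups of members. Some items covered by this rule are not reported here. The symbols *MUC2*, *FCGBP*, *ZG16*, *DGAT2* and *PNPLA3* of the lists did not match the table, and the first of 2 genes named *MOGAT2* was used. Of the other marker lists, 0 of 5 goblet cell, 1 of 8 T cell (lower), 1 of 7 macrophage (higher) and 0 of 8 smooth muscle markers (median log2 fold change -1.21) were called with GLP-2.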

Additional observations from a re-analysis of the deposited data

Results flagged for a closer look

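*SREBF2* in GLP-2 replicate 6 stood at 173 CPM, below the other 4 GLP-2 steers, which lay between 243 and 271 CPM, with a Dixon ratio of 0.758. Chance flags about 1 in 20 groups, and 32 groups (8 genes in 4 treatments) were examined. Without this steer the log2 fold change of *SREBF2* for GLP-2 against BSA was 0.015 (adjusted p = 0.936, edgeR).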

How the results depend on the processing

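With GLP-2, 1 of the 8 genes was called, and this count depends on the setting. It was 0 with no filter on low counts, with the replicate block and with the follicle or the villus enterocyte score as a covariate, 2 with at least 10 counts in every steer (*INSIG1* added), 3 in DESeq2 and in limma on log2(FPKM + 1) or log2(FPKM + 0.1) (*INSIG1* and *NPC1L1* added), and 0 to 4 when 1 steer was left out. Casein infusion as a term kept the count at 1 but with *INSIG1* (adjusted p = 0.0496) in place of *ABCG8* (0.0560). For casein + GLP-2 against control it was 1 with at least 10 counts in every steer and in DESeq2, and 0 to 3 when 1 steer was left out. For the other 6 contrasts 0 members were called under every alternative. The 9 of 28 called pairs of genes over all steers were also 9 on log2(FPKM + 1), with treatment means kept, and without the 2 farthest steers. The share called among pairs of other genes is not given here. The replicate block changed no other member call. Over all genes, the 1881 calls with GLP-2 became 689 with the block (351 higher, 338 lower), 2999 in DESeq2 and 2092 in limma on log2(FPKM + 1) (1210 higher, 882 lower, against 715 and 1166). They were 2304 of 11371 genes with at least 10 counts in every steer, 1515 of 21855 with no filter and 1971 in limma on log2(FPKM + 0.1). For casein + GLP-2 against control, the 773 calls became 1216 of 11371 with at least 10 counts in every steer and 2077 in DESeq2.

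Directions turned only where values were near 0 or a score was a covariate. For GLP-2 against BSA, the follicle score gave *IDI1* 0.037, *SREBF2* 0.13, *FADS2* 0.52 and *ABCG1* 0.95, and the villus score gave *SREBF2* 0.12, *ABCG5* -0.078, *APOB* -0.065, *FADS2* 0.14 and *ABCG1* 0.27. For casein against water the follicle score gave *NPC1L1* -0.14 and *ABCG8* -0.019. For GLP-2 against control it gave *INSIG1* -0.42, *NPC1L1* -0.62, *ABCG5* -0.75 and *ABCG8* -0.53, and the villus score gave *NPC1L1* -0.26, *ABCG5* -0.69 and *ABCG8* -0.26. For casein + GLP-2 against control the follicle score gave *NPC1L1* -0.18, *ABCG5* -0.15 and *ABCG8* -0.11. Leaving out 1 steer gave *HMGCS1* -0.020 to 0.16 and *SREBF2* -0.079 to 0.054 for GLP-2, and *HMGCS1* -0.11 to 0.051 for casein. The cause was not tested. With 5 or 6 steers a treatment, the intervals of *NPC1L1*, *ABCG5* and *ABCG8* within an infusion span more than 1 on the log2 scale.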
